A study of Mus musculus with 12 samples.

Results

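The genes described here encode the proteins of the mitochondrial ribosome. The rule for choosing them was on the name: every transcript cluster (the array's unit for 1 transcribed locus) whose annotated symbol is Mrpl or Mrps followed by a number and at most 1 letter, with the brightest cluster kept where a gene had several. The rule found 76 genes, each with 1 cluster, of 19480 named genes and 22104 clusters. Of these, 50 encode proteins of the large subunit and 25 proteins of the small subunit. Mrps30 and Mrps18a were counted with the large subunit, where their proteins sit in the mammalian ribosome. Mrps36 was counted in neither subunit, because its product is now known as a subunit of the oxoglutarate dehydrogenase complex. It remains among the 76 genes in all counts, medians and means of the whole group.

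The measurements came from 12 arrays of 3T3-L1, a line of mouse preadipocytes that fill with fat once differentiated, and RNA was taken on day 8 of differentiation. The 4 groups were ALA plus inhibitor (alpha-linolenic acid at 50 µM with a delta-6-desaturase inhibitor at 5 µM), ALA alone at 50 µM, inhibitor alone at 5 µM, and control with ethanol and DMSO. Each group had 3 arrays, from cells at passage 6, 7 and 8. All groups shared the differentiation cocktail, given together with the treatments from day 0, and maintenance medium with insulin at 5 µg/ml. The labels state 2% fatty-acid-free albumin for the ALA medium and vehicle for control, and no label says whether either was matched in the other groups. All cells belong to 1 line, and no label says whether the 4 treatments of a passage were split from 1 culture, so the tests measure only the spread between these arrays. ALA is a plant omega-3 fatty acid. The delta-6-desaturase takes the first step in turning it into longer omega-3 fatty acids.

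As background, the mitochondrial ribosome translates the few proteins that mitochondrial DNA encodes, all of them membrane subunits of the respiratory chain and the ATP synthase. Its RNA is made inside the organelle, while its proteins are encoded in the nucleus, made in the cytosol and imported. Many are relatives of bacterial ribosomal proteins, and others were added in the course of mitochondrial evolution. Fat cells make more mitochondria as they differentiate, and the ribosomal protein genes belong to the nuclear programme that supplies them.

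The values were log2 signals, so a difference of 1 is a 2-fold change. All 10 adipocyte markers lay above the array medians, with means between 9.23 for Slc2a4 and 13.08 for Adipoq, and their mean per array lay between 11.45 and 11.74. Preadipocyte and fibroblast markers were also present, with 5 of 6 measured markers above the median. Macrophage and endothelial markers lay below it, with 0 of 4 above in each list, and 2 of 5 muscle markers lay above. The array of ALA at passage 7 was unlike the rest. Over all clusters it correlated with other arrays at 0.976 to 0.987, against 0.989 to 0.994 among the other 11. Some results that use it are given below with and without it. Others, such as most differences of single genes, are given with it only and may depend on it.

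The start regions of the genes are shown first because the rule did not use them. RefSeq (GRCm38.p6) gave windows from 250 bases before to 50 after the transcription start for 67 of the 76 genes, 73 windows in all. The letters CCGGAAG, the core of sites for ETS factors such as GABP, stood on either strand in 34.2% of the members' windows, against 8.86% of all 32851 windows and 11.6% of the windows of protein-coding genes. The core GCGCATGC of NRF1, a factor known for its role at nuclear genes of the respiratory chain, stood in 10.96% of members' windows, 2.71% of all windows and 3.51% of protein-coding ones. For AAGATGGC, a site core of YY1, the shares were 16.4% of members' windows, 2.75% of all windows and 3.05% of protein-coding ones. Together, 37 of the 67 genes held at least 1 of these 3 motifs. The GC box GGGCGG was in 52.1% of members' windows, 35.7% of all windows and 46.2% of protein-coding ones. The E-box CACGTG was in 9.59%, 7.15% and 7.84% of the same windows. TATAAA was in 6.85% of members' windows, 13.6% of all windows and 12.6% of protein-coding ones. Median G and C content was 58.3% in members' windows, against 52.7% in all windows and 56.3% in protein-coding ones. Motifs of 2 kinds may overlap, windows of neighbouring starts share bases, and a match describes the letters only.

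Members also tended to lie beside another start. Of the 67 genes, 23 (34.3%) had the start of an oppositely oriented gene within 500 bases upstream, against 10.9% of all 27025 genes and 11.7% of protein-coding genes. Mrpl46 and Mrps11 start 42 bases apart on chromosome 7. Mrps12 starts 147 bases from Sars2, the mitochondrial seryl-tRNA synthetase. Mrpl43 starts 116 bases from Twnk, the mitochondrial DNA helicase, and Mrpl47 starts 308 bases from Ndufb5, a subunit of respiratory complex I. Other partners have roles outside mitochondria, such as Psma2, a proteasome subunit 205 bases from Mrpl32, and Fau, which encodes a cytosolic ribosomal protein and starts 192 bases from Mrpl49. The 76 genes lie on 17 chromosomes, with 11 on chromosome 11 and 8 on chromosome 17.

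The 5 stretches below are the 100 bases before the start, 5′ to 3′ on the gene's strand, with the letters of the motifs above in capitals. Mrpl32 is shown for its 4 NRF1 core matches, of which the pair at the left overlaps. Mrpl17 and Mrpl58 are shown for an NRF1 core and an ETS core next to the start. Mrpl33 and Mrps9 are shown because they are among the genes whose signals differed between passages, as described further on. In Mrpl33 an ETS core also begins 3 bases before the start and runs across it, and in Mrpl58 one begins 2 bases before it.
Mrpl32 (chr13:14613038-14613137, minus strand): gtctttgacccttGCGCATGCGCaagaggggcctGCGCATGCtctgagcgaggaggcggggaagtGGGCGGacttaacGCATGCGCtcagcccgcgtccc
Mrpl17 (chr7:105811088-105811187, minus strand): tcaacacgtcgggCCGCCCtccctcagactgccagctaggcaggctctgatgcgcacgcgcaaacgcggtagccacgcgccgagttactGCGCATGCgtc
Mrpl58 (chr11:115403652-115403751, plus strand): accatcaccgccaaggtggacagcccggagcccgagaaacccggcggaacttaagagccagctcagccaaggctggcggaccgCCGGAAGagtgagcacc
Mrpl33 (chr5:31613851-31613950, plus strand): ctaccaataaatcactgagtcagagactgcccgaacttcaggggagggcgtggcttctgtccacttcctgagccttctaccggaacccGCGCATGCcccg
Mrps9 (chr1:42851133-42851232, plus strand): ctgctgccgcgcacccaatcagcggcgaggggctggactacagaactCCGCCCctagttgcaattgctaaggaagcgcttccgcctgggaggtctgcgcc

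All but 1 of the 76 genes gave a mean signal above the median cluster of the arrays. Mean signals over the 12 arrays lay between 6.06 for Mrpl36 and 10.43 for Mrpl42. The brightest clusters after Mrpl42 were those of Mrpl33 (10.41), Mrpl51 (10.21), Mrpl45 (10.07) and Mrpl17 (9.81), and the dimmest after Mrpl36 were those of Mrpl22 (6.38), Mrps24 (6.43), Mrpl46 (6.60) and Mrpl47 (6.60). Brightness depends on the probes of each cluster, so these signals do not order the genes by transcript level.

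**Figure D1:**
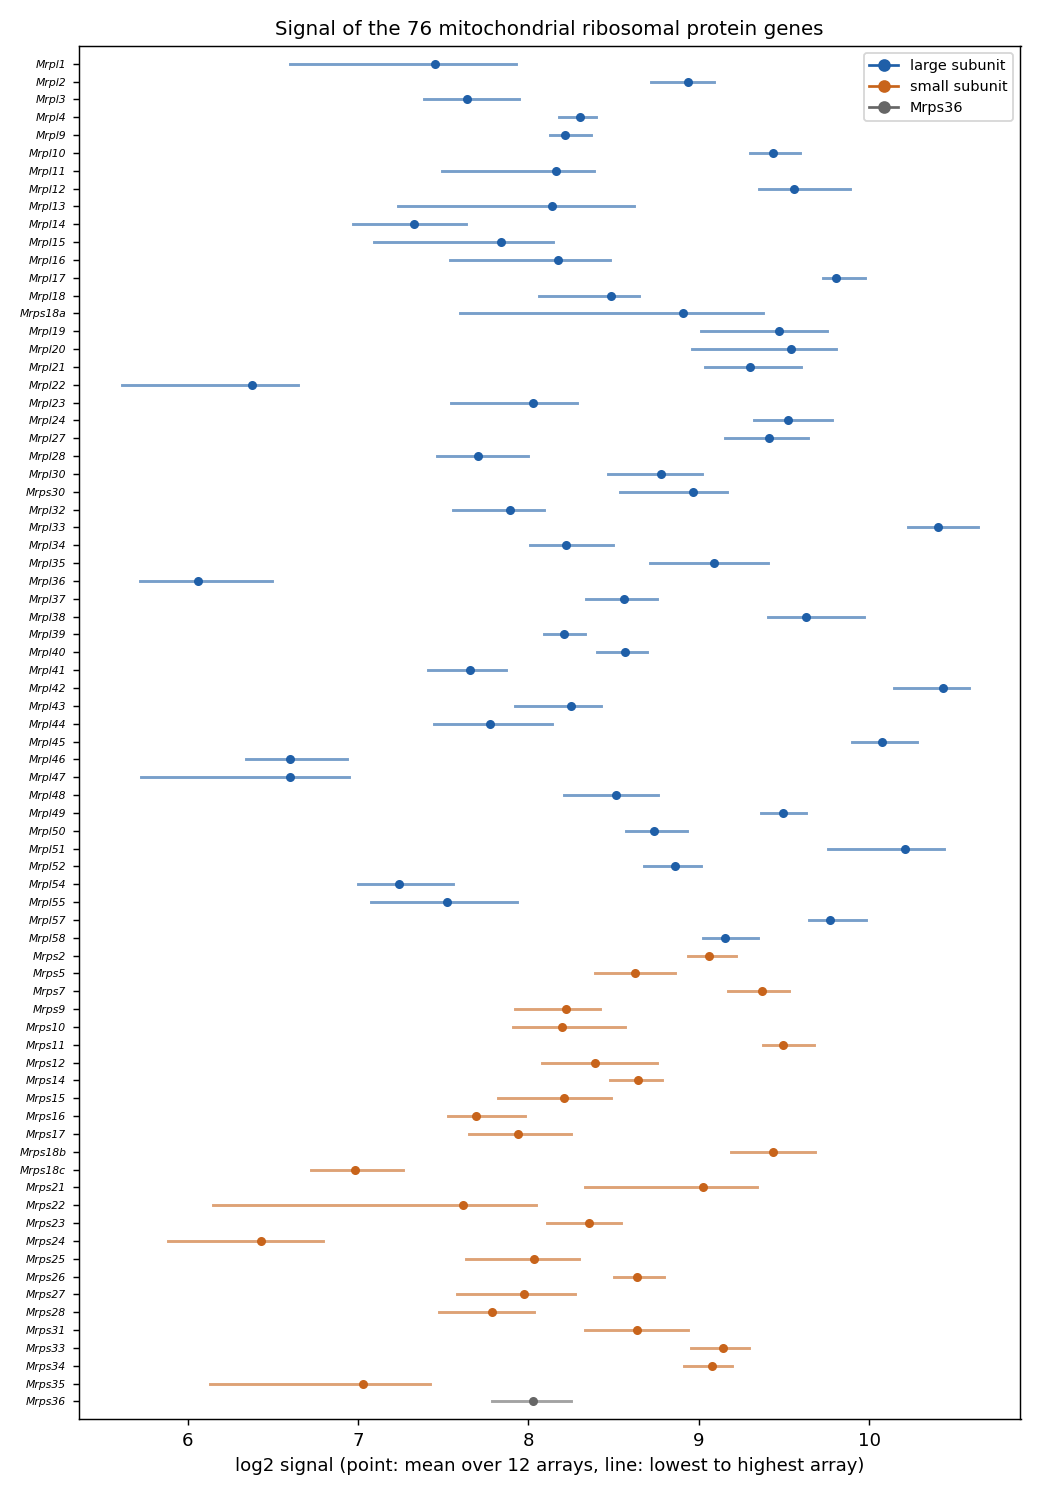
Log2 signal of the 76 genes on the horizontal axis, with large subunit genes in blue, small subunit genes in orange and Mrps36 in grey, in order of their number. Points are means over 12 arrays and lines run from the lowest to the highest array. Most lines span less than 1 log2 unit, and the 9 longer ones, such as Mrps22 and Mrps18a, reach down to a single low array.

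Most members varied little. The range of a gene over the 12 arrays had a median of 0.54, beside 0.52 for the 3238 clusters whose mean signal lay between 7.88 and 9.15, the members' 25th and 75th percentiles. These clusters of like brightness are used below as a second yardstick beside all clusters. Ranges were under 0.3 for 11 genes, the narrowest being Mrpl4 (0.22), Mrpl9 (0.24), Mrpl39 (0.24), Mrpl17 (0.25) and Mrpl49 (0.27). They were over 1 for 9 genes. Mrps22, a small subunit protein, ranged over 1.89 and Mrps18a over 1.78, followed by Mrpl13 (1.38), Mrpl1 (1.32) and Mrps35 (1.29), and each of these 5 was lowest on the ALA array of passage 7. Mrps22 read 6.15 there, against 7.30 to 8.04 on the other 11 arrays. That array gave the lowest value for 34 of the 76 genes. The mean of the 76 genes was 8.23 on it and 8.33 to 8.60 on the others, while the clusters of like brightness averaged 8.34 on it and 8.45 to 8.54 on the others. At the other end, the passage 6 array of ALA plus inhibitor gave the highest value for 21 genes and the passage 6 array of inhibitor alone for 20.

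**Figure D2:**
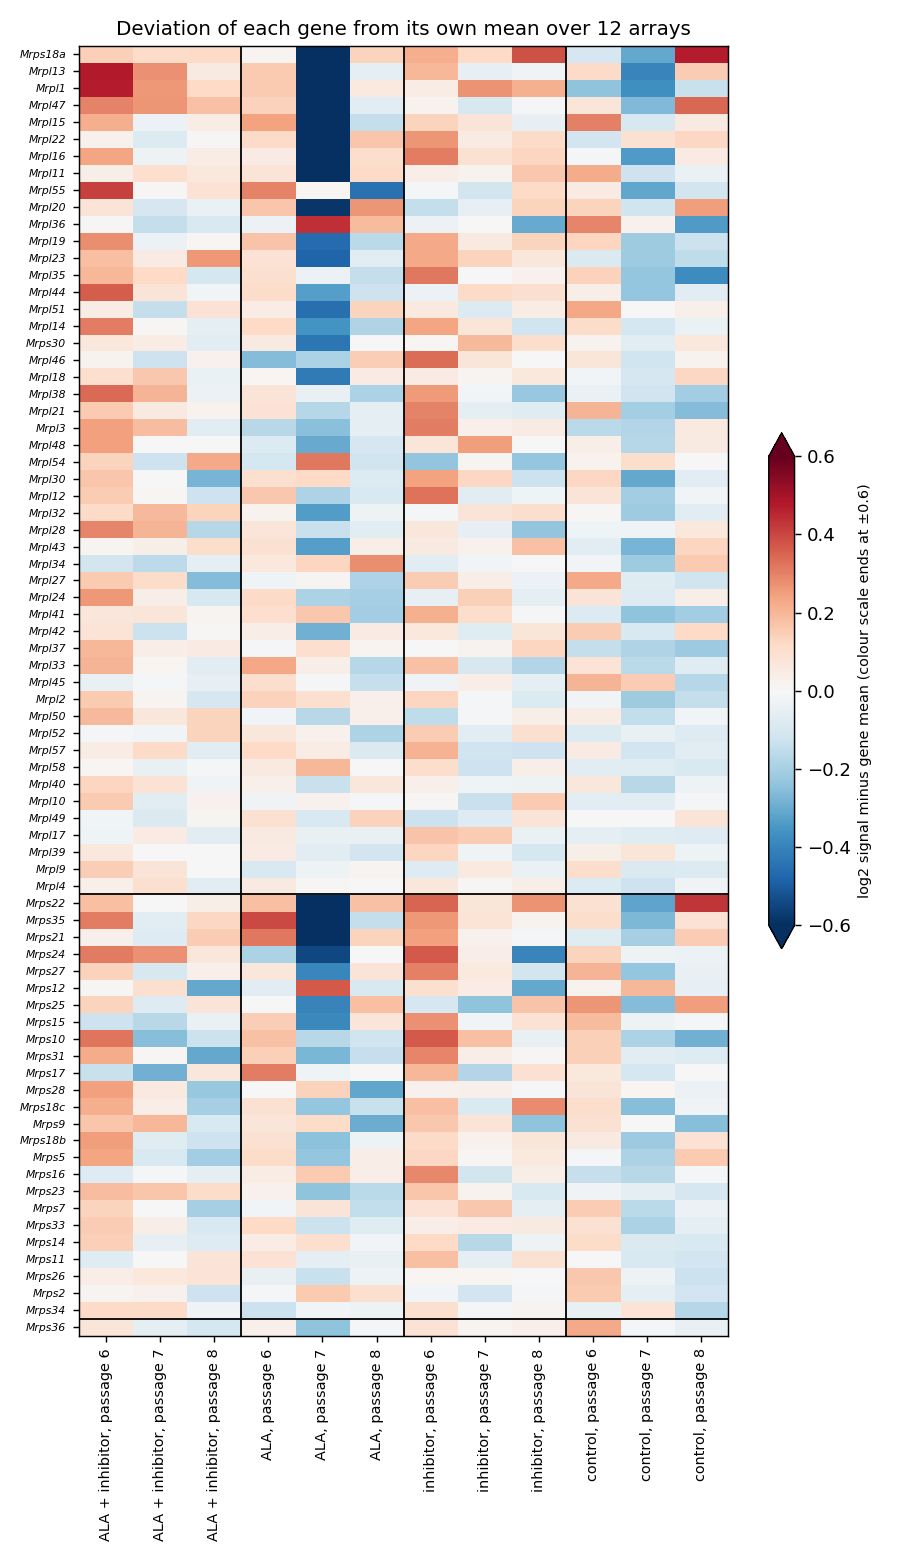
Each row is a gene and each column an array, ordered ALA plus inhibitor, ALA, inhibitor and control, with passages 6, 7 and 8 within each. Colour gives the log2 signal minus the gene's own mean, red for higher and blue for lower, with large subunit genes at the top, small subunit genes under them and Mrps36 in the last row. The ALA passage 7 column holds the lowest value of 34 genes, and the passage 6 columns of the 2 inhibitor groups hold the highest value of 21 and 20.

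The members tended to move together from array to array. For each gene, the correlation over 12 arrays with the mean of the other 75 had a median of 0.61, and 46 of 76 genes were above 0.5. Without the ALA passage 7 array the median was 0.52, with 41 genes above 0.5. For clusters of like brightness the correlation with the members' mean had a median of 0.26 over all 12 arrays. These clusters include the members within that range of brightness, whose own values are part of that mean. The genes most like the rest were Mrpl19 (0.95), Mrpl13 (0.92), Mrpl14 (0.92), Mrps35 (0.91) and Mrpl16 (0.90). Correlations were below 0 for 8 genes, down to -0.44 for Mrps12 and -0.56 for Mrpl54, which were at -0.02 and -0.27 without the ALA passage 7 array. All arrays were normalized together and share treatments and passages, so these values describe likeness only.

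The signals of the genes differed between arrays of different passages. Passage is also the order of culture, so a culture batch cannot be told apart from it. The members' mean was 8.56 ± 0.04 at passage 6, 8.38 ± 0.12 at passage 7 and 8.44 ± 0.02 at passage 8 (SD over the 4 arrays of a passage, n = 4 each). At passage 8, 62 of the 76 genes were lower than at passage 6 and 14 were higher, with a median log2 difference of -0.09, while the median was 0.00 for clusters of like brightness and -0.01 for all clusters. Lower were 81.6% of the members, 49.4% of clusters of like brightness and 52.9% of all clusters. In bulk RNA, fewer cells of a type and less RNA per cell cannot be told apart. By limma with treatment in the model, 7 genes passed the unadjusted threshold of p under 0.01 that the series' design uses, and all 7 were lower at passage 8. That is 9.21% of the members, against 5.95% of all clusters and 9.23% of clusters of like brightness. At an unadjusted p under 0.05 there were 14 lower and 0 higher members (18.4%), against 14.6% of all clusters and 19.8% of clusters of like brightness. After adjustment over all 22104 clusters (Benjamini-Hochberg) no member passed, against 1.91% of all clusters. The share of members called was therefore near that of clusters of like brightness, while the 7 were all lower and the called clusters of the whole array were 792 higher and 524 lower. The count of 7 was 2 without the ALA plus inhibitor array of passage 8 and 3 without either the passage 6 or the passage 8 array of the inhibitor group. With the variance fitted as a trend on intensity it was 12 (15.8%, against 8.28% of all clusters and 14.5% of those of like brightness), of which 8 passed adjustment (10.5%, against 5.26% and 8.96%).

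The 7 genes were of both subunits. Mrps9 encodes a small subunit protein with a bacterial counterpart. At passage 8 it read 8.13 with ALA plus inhibitor, 7.92 with ALA, 7.98 with inhibitor and 7.96 in control, against 8.38, 8.29, 8.38 and 8.31 in the same order at passage 6. All 4 arrays of passage 8 lay below all 4 of passage 6, and at passage 7, with 8.22 to 8.42, the signal was still near that of passage 6. The log2 difference was -0.35 ± 0.08 (SE, limma adjusted p = 0.0534). Mrps10, likewise a small subunit protein with a bacterial relative, read 8.07, 8.08, 8.15 and 7.91 at passage 8 and 8.52, 8.38, 8.56 and 8.34 at passage 6, in the same order of treatments. The 2 passages did not overlap, and the difference was -0.40 ± 0.09 (SE, limma adjusted p = 0.0573). In contrast to Mrps9, its mean was already low at passage 7, where 3 of 4 arrays lay between 7.94 and 8.03.

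Mrpl38, a protein of the large subunit found in mitochondria only, read 9.59, 9.44, 9.40 and 9.42 at passage 8 and 9.97, 9.71, 9.89 and 9.59 at passage 6. Each treatment was lower at passage 8, but the ALA plus inhibitor array of passage 8 lay level with the control array of passage 6. Its difference was -0.32 ± 0.08 (SE, limma adjusted p = 0.0874). Mrpl35 differed by -0.34 ± 0.09, and its values at passage 8 were 8.71 to 9.12, against 9.19 to 9.41 at passage 6. Mrpl33 differed by -0.29 ± 0.08, with 10.23 to 10.34 at passage 8 and 10.49 to 10.64 at passage 6. Both are small proteins of the large subunit with bacterial counterparts, and neither overlapped between the passages. For Mrps31, a mitochondria-specific small subunit protein, the difference was -0.33 ± 0.09, with 8.33 to 8.65 at passage 8 against 8.78 to 8.93 at passage 6. For Mrpl14, a large subunit protein at the face that meets the small subunit, it was -0.29 ± 0.09, with 7.15 to 7.29 against 7.44 to 7.63. The last 4 had limma adjusted p-values from 0.0903 for Mrpl35 to 0.15 for Mrpl14.

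**Figure D3:**
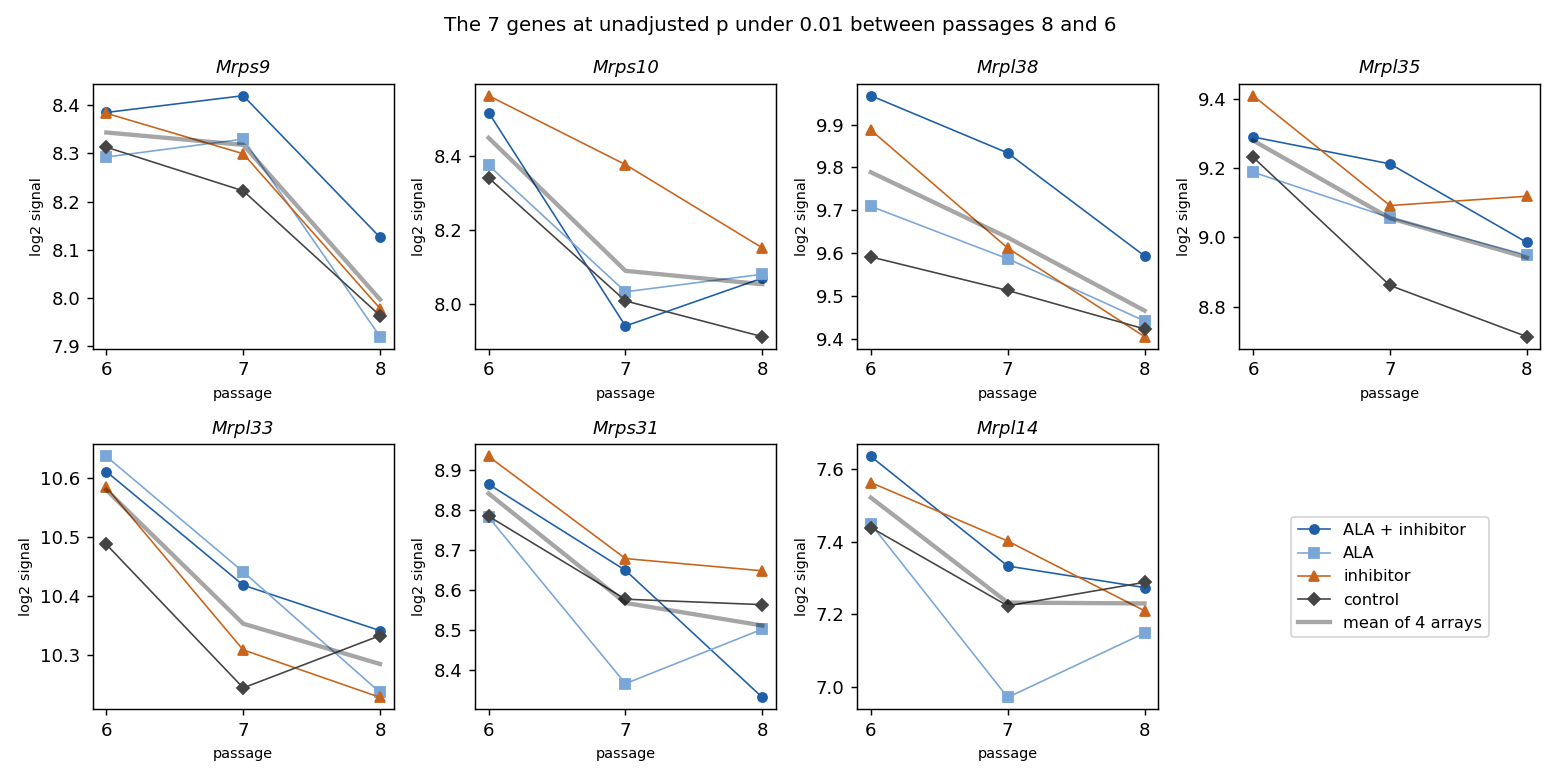
Log2 signal on the vertical axis against passage for the 7 genes at unadjusted p under 0.01, each panel with its own scale. Coloured lines join the arrays of 1 treatment and the grey line is the mean of the 4 arrays. In each panel all 4 treatments are lower at passage 8 than at passage 6, and Mrps9 stays high at passage 7 while Mrps10 and Mrpl14 do not.

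Across the whole group, the values of passages 8 and 6 did not overlap for 18 genes (23.7%), all lower at passage 8. Of all clusters 5.35% were without overlap and lower and 7.13% without overlap and higher, and of clusters of like brightness 9.14% and 11.6%. Within treatments, 60 of 76 genes were lower at passage 8 with ALA plus inhibitor, 52 with ALA, 54 with inhibitor and 53 in control, with medians of -0.14, -0.08, -0.09 and -0.08. The medians of clusters of like brightness were -0.04, -0.01, 0.04 and 0.03 in the same order. In every treatment, 28 genes were lower, and Mrpl34 and Mrpl49 were higher. Of clusters of like brightness 17.6% were lower and 19.9% higher in every treatment, and of all clusters 12.5% and 13.4%. Mrpl12, a large subunit protein that also binds the mitochondrial RNA polymerase, was among the 18 and differed by -0.24. Its values were 9.43 to 9.54 at passage 8 and 9.64 to 9.89 at passage 6. The 25 small subunit genes had 23 lower members and a median of -0.14, the 50 large subunit genes 38 lower and -0.07. Of the 45 genes with a bacterial counterpart 39 were lower, with a median of -0.16, and of the 30 mitochondria-specific genes 22, with -0.06. Whether these subgroups differ was not tested.

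Set against passage 6, 72 of the 76 genes were lower at passage 7, with a median of -0.15 beside -0.05 for clusters of like brightness. The count was 71, with a median of -0.12 beside -0.03, without the ALA passage 7 array. Of the members, 9 passed an unadjusted p under 0.01 by limma and all were lower (11.8%, against 2.09% of all clusters and 2.10% of those of like brightness), among them Mrpl19 (-0.37), Mrps10 (-0.36), Mrps35 (-0.55) and Mrpl12 (-0.29). The smallest adjusted p was 0.459. Without the ALA passage 7 array 2 members passed the unadjusted threshold (2.63%, against 1.48% of all clusters), so much of the count rests on that array. Within treatments, 61 genes were lower at passage 7 with ALA plus inhibitor, 57 with ALA, 57 with inhibitor and 67 in control. From passage 7 to passage 8 there was no common direction, with 45 genes higher and 31 lower and a median of 0.04, beside 0.06 for clusters of like brightness. The smallest adjusted p there was that of Mrps9 (limma adjusted p = 0.0822). Both comparisons share their passage 7 or passage 6 arrays with those above.

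Of the gene groups that serve or resemble the mitochondrial ribosome, those of oxidative phosphorylation and of the cytosolic ribosome were mostly lower at passage 8. Mitochondrial aminoacyl-tRNA synthetases (57.9% lower) and genes for copying and transcribing mitochondrial DNA (54.5% lower) were near all clusters, of which 52.9% were lower. Of 84 subunits of oxidative phosphorylation, the machinery that the mitochondrial ribosome helps to build, 74 were lower, with a median of -0.12. By limma, 7 passed p under 0.01 (8.33%, against the 5.95% of all clusters and 9.23% of clusters of like brightness given above). The adjusted threshold, which 1.91% of all clusters passed, was passed by 1 of the 84. This was Cox6a2 (-0.68, limma adjusted p = 0.0378), a muscle-type subunit of cytochrome oxidase. Of 64 cytosolic ribosomal protein genes, which share no subunit with the mitochondrial ones, 58 were lower, with a median of -0.12. At p under 0.01 there were 2 (3.1%), Rpl9 (-0.36) and Rps21 (-0.27). All 4 measured proteins of the mitochondrial ribosome with other names were lower (median -0.09). These include Dap3 (-0.13) and Chchd1 (-0.16), and 0 of them passed p under 0.05. Of 25 factors that assemble the ribosome or modify its RNA, 15 were lower (median -0.06), with 2 (8%) at p under 0.01. These were Malsu1 (-0.40), which keeps the subunits from joining too early, and Ngrn (-0.27), which is needed for the large ribosomal RNA. Translation factors had 11 of 16 lower and a median of -0.02, and Mrrf, the recycling factor, differed by -0.26 (limma adjusted p = 0.231). Mitochondrial aminoacyl-tRNA synthetases had 11 of 19 lower and a median of -0.02. Of them, 1 (5.26%) passed p under 0.01, Cars2 (0.44, limma adjusted p = 0.119). Of 11 genes for copying and transcribing mitochondrial DNA, 6 were lower, and 2 of these passed p under 0.01 (18.2% of the 11). Mterf1a, a termination factor, also passed the adjusted threshold (-0.44, limma adjusted p = 0.0389), and Polg2 did not (-0.43, limma adjusted p = 0.139). Preadipocyte markers moved the other way: their mean was 9.76 at passage 6, 9.99 at passage 7 and 10.03 at passage 8. Adipocyte markers averaged 11.55, 11.53 and 11.68, and the 5 muscle markers 6.19, 6.11 and 5.96. The part of any of these in the members' difference was not tested.

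The next comparison asked what the desaturase inhibitor did in the absence of added ALA. The members' mean was 8.51 ± 0.06 with inhibitor and 8.43 ± 0.09 in control (SD, n = 3 each). With inhibitor, 56 of 76 genes were higher and 20 lower, with a median log2 difference of 0.08, beside 0.04 for clusters of like brightness and 0.00 for all clusters. Higher were 73.7% of the members, 62.3% of clusters of like brightness and 49.2% of all clusters. No member reached an unadjusted p under 0.01 by limma, against 0.855% of all clusters and 0.247% of clusters of like brightness. At p under 0.05 there were 2 (2.63%, against 4.32% of all clusters and 2.10% of those of like brightness). After adjustment no member passed, as was so for all clusters (0%), and the smallest adjusted p of a member was 0.998. Within passages the medians were 0.09 at passage 6, 0.14 at passage 7 and 0.03 at passage 8, beside 0.02, 0.05 and 0.03 for clusters of like brightness. With the arrays centred on their medians 66 genes were higher and the median was 0.13. Single arrays also moved it, to 0.03 with 44 genes higher without the control array of passage 7 and to 0.04 with 49 without the inhibitor array of passage 6.

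The values of inhibitor and control did not overlap for 7 genes, all higher with inhibitor (9.21%), against 5.88% of all clusters higher and 4.97% lower without overlap. Among clusters of like brightness the shares were 9.30% higher and 2.72% lower, so the members' 9.21% was near theirs. Mrpl41, a mitochondria-specific protein of the large subunit, read 7.87, 7.76 and 7.65 with inhibitor at passages 6, 7 and 8, against 7.57, 7.41 and 7.45 in control. All 3 inhibitor arrays lay above the control arrays, and the difference was 0.28 ± 0.12 (SE, limma adjusted p = 0.998). Mrpl37, also mitochondria-specific, read 8.56, 8.58 and 8.69 with inhibitor and 8.42, 8.38 and 8.34 in control, a difference of 0.23 ± 0.10 (SE, limma adjusted p = 0.998). The widest gap was that of Mrpl1, a relative of bacterial L1, with 7.50, 7.72 and 7.67 with inhibitor and 7.21, 7.09 and 7.32 in control. Its groups were also apart, but its difference of 0.42 ± 0.22 (SE, limma adjusted p = 0.998) came with a wide error. Mrpl23 (0.29), Mrpl16 (0.28), Mrpl17 (0.16) and Mrpl4 (0.11) completed the 7, and 0 of the small subunit genes were among them.

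The comparison of ALA plus inhibitor with ALA asked what the inhibitor did when ALA, the substrate of the desaturase, was supplied. The members' mean was 8.51 ± 0.08 with both agents and 8.40 ± 0.15 with ALA (SD, n = 3 each). Here 62 genes were higher and 14 lower, with a median of 0.09, beside 0.04 for clusters of like brightness and -0.02 for all clusters. Higher were 81.6% of the members, 60.2% of clusters of like brightness and 46.6% of all clusters. No member reached p under 0.01 by limma, against 1.47% of all clusters and 1.11% of those of like brightness. At p under 0.05 there were 8 higher and 1 lower (11.8%, against 7.27% of all clusters and 6.58% of those of like brightness). No cluster of the array passed adjustment (0%), and the smallest adjusted p of a member was 0.68. Without the ALA passage 7 array, 43 genes were higher, the median was 0.02 and 1 gene had p under 0.05, so much of this difference rested on 1 array. The median was 0.15 without the ALA array of passage 6 and 0.05 without the passage 6 array of both agents. Within passages the medians were 0.08 at passage 6, 0.19 at passage 7 and -0.01 at passage 8, beside 0.01, 0.11 and -0.01 for clusters of like brightness.

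Mrps23, a small subunit protein found in mitochondria only, read 8.54, 8.52 and 8.46 with both agents at passages 6, 7 and 8, against 8.38, 8.11 and 8.19 with ALA. The groups did not overlap and the difference was 0.28 ± 0.11 (SE, limma adjusted p = 0.68). Mrps24 read 6.74, 6.70 and 6.50 with both agents and 6.24, 5.88 and 6.43 with ALA, a difference of 0.46 ± 0.19 (SE, limma adjusted p = 0.684). In Mrpl47 the difference was 0.51 ± 0.22 (SE, limma adjusted p = 0.684), with 6.90, 6.87 and 6.78 with both agents against 6.74, 5.73 and 6.54 with ALA. The ALA array of passage 7 was far below the other 2. Mrpl32 (0.26) also had no overlap, while Mrpl1 (0.50), Mrpl23 (0.31), Mrpl13 (0.54) and Mrpl3 (0.28) overlapped. The 1 lower gene at p under 0.05 was Mrpl34, a small large-subunit protein with a bacterial counterpart. It read 8.11, 8.06 and 8.16 with both agents and 8.28, 8.35 and 8.50 with ALA, a difference of -0.27 ± 0.12 (SE, limma adjusted p = 0.684). In all, 7 genes were higher and 2 lower without overlap, against 4.75% and 6.85% of all clusters and 6.55% and 4.91% of those of like brightness.

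**Figure D4:**
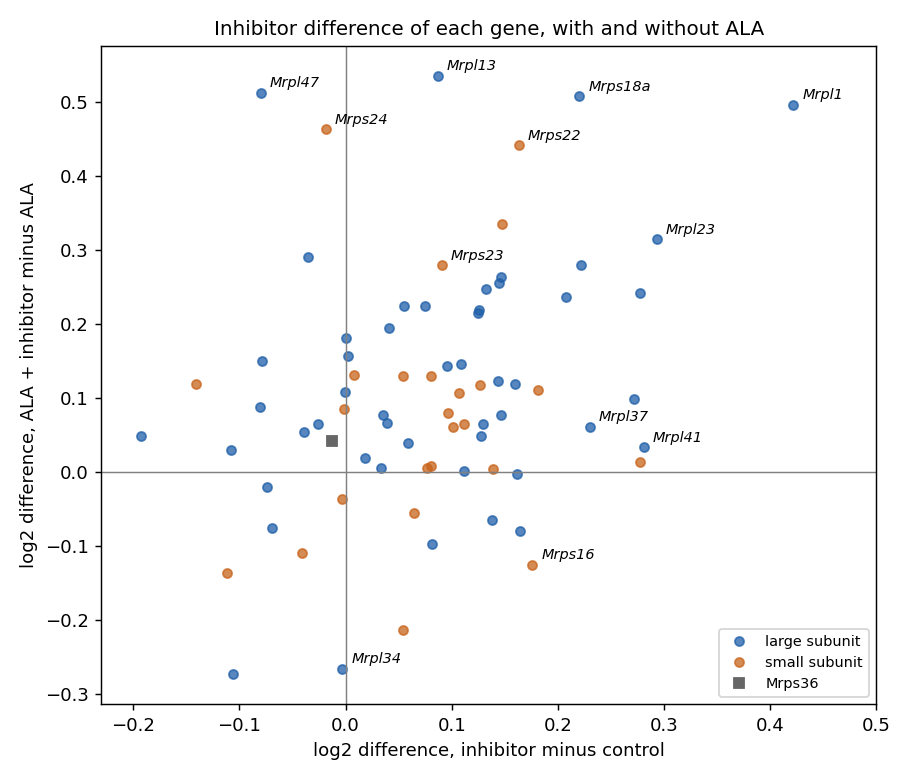
Log2 difference of ALA plus inhibitor minus ALA on the vertical axis against that of inhibitor minus control on the horizontal axis, 1 point per gene, large subunit in blue, small subunit in orange and Mrps36 as a grey square. Of the 76 points, 49 lie at the upper right, where the gene was higher in both comparisons, and 7 at the lower left.

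Both inhibitor comparisons use different arrays. In both, 49 of the 76 genes (64.5%) were higher with inhibitor, against 44.7% of clusters of like brightness and 28.6% of all clusters, and 7 were lower in both. When the inhibitor difference was averaged over both ALA states, a comparison added after the data were seen, 64 genes were higher and 12 lower. The median was 0.09, beside 0.04 for clusters of like brightness. By limma, Mrpl23 passed an unadjusted p under 0.01, as did 1.90% of all clusters, and 5 genes passed p under 0.05 (6.58%, against 8.76% of all clusters and 7.78% of those of like brightness). With passage as a block, which the labels do not state as a pairing, 12 genes passed p under 0.05 (15.8%, against 12.7% of all clusters and 13.3% of those of like brightness). In that fit 0.0362% of all clusters and no member passed adjustment. Mrpl23, a large subunit protein with a bacterial relative near the exit of the peptide tunnel, averaged 8.18 ± 0.09 on the 6 arrays with inhibitor and 7.87 ± 0.19 on the 6 without (SD). The lowest and highest values were 8.07 and 8.28 with inhibitor, and 7.54 and 8.12 without, so the groups overlapped slightly. Its difference was 0.30 ± 0.10 (SE, limma adjusted p = 0.496). Mrpl1 (0.46), Mrpl3 (0.25), Mrpl32 (0.21) and Mrps23 (0.19) were the other genes at p under 0.05. Without the block, 0% of all clusters passed adjustment. Without the ALA passage 7 array, 57 genes were higher and the median was 0.05.

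Neighbouring groups behaved unevenly with the inhibitor. Of all clusters, 49.2% were higher with inhibitor than in control and 46.6% with both agents than with ALA. Of clusters of like brightness the shares were 62.3% and 60.2%, though these match the members in brightness and not the groups below. Of the 64 cytosolic ribosomal protein genes, 58 were higher with inhibitor than in control (median 0.11) and 52 with both agents than with ALA (median 0.12). Of the 84 oxidative phosphorylation genes the counts were 48 (median 0.03) and 51 (median 0.04). Translation factors had 14 and 13 of 16 higher, and assembly and RNA modification factors 19 and 18 of 25. Aminoacyl-tRNA synthetases had 12 and 10 of 19 higher, and genes for copying and transcribing mitochondrial DNA 7 and 9 of 11. All 4 other mitochondrial ribosome proteins were higher in both, with Gadd45gip1 at 0.23 and 0.25. Rpusd4, a pseudouridine synthase acting on mitochondrial ribosomal RNA, read 6.68 with inhibitor and 6.20 in control, a difference of 0.48 (limma adjusted p = 0.998). Nars2, the mitochondrial asparaginyl-tRNA synthetase, read 7.28 with both agents and 6.66 with ALA, a difference of 0.63 (limma adjusted p = 0.653). Genes of these groups also read lower in the same comparison. Rps4l, listed among the cytosolic ribosomal proteins, differed by -0.55, and Cox8c, a cytochrome oxidase subunit, by -0.51 (limma adjusted p = 0.653 for each). Preadipocyte markers averaged 9.86 with both agents against 10.06 with ALA, and 9.80 with inhibitor against 10.00 in control, and their part in the members' values was not tested.

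ALA by itself was set against control to ask what the fatty acid did to the differentiating cells. Of the 76 genes, 31 were higher and 45 lower with ALA, with a median of -0.02, the same as the -0.02 of clusters of like brightness and beside 0.01 for all clusters. No member passed p under 0.05 by limma, against 3.41% of all clusters and 1.51% of those of like brightness. None passed p under 0.01, against 0.525% and 0.154%, and none passed adjustment, against 0% of all clusters. The direction of the median rested on single arrays: it was 0.06 with 53 genes higher without the ALA array of passage 7, and -0.09 without that of passage 6. Without overlap, 6 genes were higher and 0 lower (7.89% and 0%, against 3.86% and 2.91% of all clusters and 3.37% and 3.30% of those of like brightness). Mrpl37 read 8.55, 8.66 and 8.57 with ALA and 8.42, 8.38 and 8.34 in control, a difference of 0.21 ± 0.10 (SE, limma adjusted p = 1), and Mrpl2, a relative of bacterial L2, also differed by 0.21. The others were Mrps16 (0.18), Mrpl58 (0.16), Mrpl4 (0.09) and Mrpl17 (0.06). Mrpl58 is a peptidyl-tRNA hydrolase built into the large subunit, and its values of 9.15 to 9.35 with ALA lay above the close control values of 9.06 to 9.09.

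When the inhibitor was present in both arms, ALA again left the members without a common direction. With ALA plus inhibitor, 36 genes were higher and 40 lower than with inhibitor alone, with a median of -0.01 beside -0.02 for clusters of like brightness. The split was 27 higher with centred arrays and 46 higher after quantile scaling. No member passed p under 0.05 by limma, against 3.56% of all clusters and 0.896% of those of like brightness. None passed p under 0.01, against 0.728% and 0.185%, and none passed adjustment, against 0% of all clusters. Without overlap, 4 genes were higher and 2 lower, against 4.82% and 4.91% of all clusters and 2.96% and 5.37% of those of like brightness. Mrpl47 was among the higher ones, with 6.90, 6.87 and 6.78 with both agents and 6.62, 6.51 and 6.59 with inhibitor, a difference of 0.28. The test of the interaction asks whether the inhibitor difference depends on ALA. By limma it gave no member at p under 0.05, against 3.42% of all clusters and 0.926% of those of like brightness. None passed p under 0.01, against 0.638% and 0.124%, and none passed adjustment, against 0% of all clusters. The members' median of the interaction was 0.03, and -0.04 without the ALA passage 7 array.

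**Figure D5:**
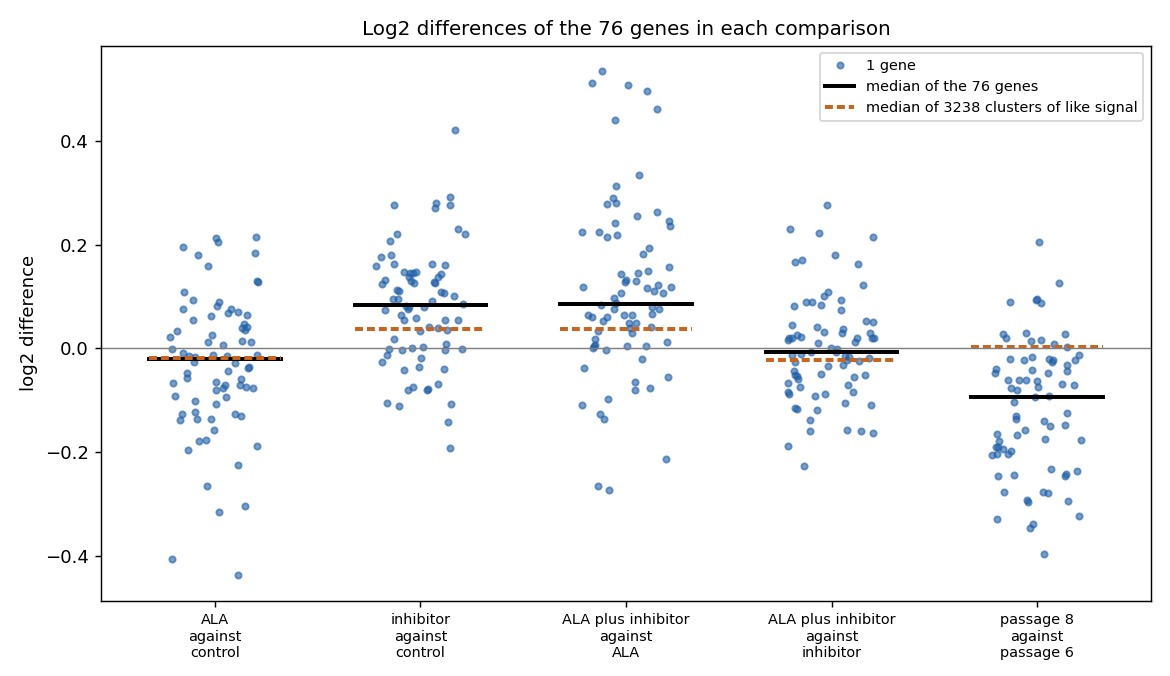
Log2 difference on the vertical axis for 5 comparisons, with 1 point per gene, a black bar at the median of the 76 genes and a dashed orange bar at the median of the 3238 clusters of like brightness. The black bar lies above the dashed one in the 2 inhibitor comparisons (0.08 and 0.09 beside 0.04 and 0.04), on it for ALA against control, and below it for passage 8 against passage 6 (-0.09 beside 0.00).

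Some further members have a role that is known in more detail. Mrpl44, a large subunit protein that resembles RNase III, differed by 0.15 with inhibitor against control and by 0.26 with both agents against ALA (limma adjusted p = 0.699). Mrps12, a relative of the bacterial protein that sets decoding accuracy, differed by -0.11 and -0.14 in the same order. These turned to 0.01 without the inhibitor array of passage 8 and 0.01 without the ALA array of passage 7, so they rest on 1 array each. Mrps34, known to stabilise the small subunit, differed by 0.08 with inhibitor against control and 0.13 with both agents against ALA. The 3 paralogs of bacterial S18 were unlike in spread: Mrps18b ranged from 9.19 to 9.68 and Mrps18c from 6.73 to 7.26, while Mrps18a ranged from 7.60 to 9.38. Mrps18a read 7.60 on the ALA array of passage 7 and 8.60 to 9.38 elsewhere. Its difference was -0.41 for ALA against control and 0.51 for both agents against ALA. Without that array the differences were 0.06 and 0.05, so the first changed sign. Mrps30 was likewise lowest on that array, at 8.54 against 8.91 to 9.16 elsewhere. Mrps36, whose product works outside the ribosome, read 7.79 to 8.25.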

How the data were processed

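The 12 arrays gave log2 signals per transcript cluster, deposited by the authors. Per the submitters' processing notes they came from RMA, whose version was not given in the sources used here. RMA compresses differences between dim clusters. Symbols came from the array's annotation held by GEO, and all 76 members matched RefSeq (GRCm38.p6) by gene ID. Arrays give no read depth, and their number limits the precision.

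All 22104 clusters were fitted without filter or further scaling in R 4.3.3 with limma 3.58.1. The model had 1 coefficient per treatment on 12 arrays, and passages were compared in a fit of passage plus treatment. Calls used an unadjusted p under 0.01 (the series' threshold) and Benjamini-Hochberg adjusted p under 0.05 over all clusters, two-sided. The fit was tested on simulated data with independent noise for each array. That test does not cover deviations shared by the arrays of a passage. Members and lists were chosen with earlier results of these data known. Named genes were those with the smallest p per comparison, extreme means or ranges, no overlap, or a known role, and up to 2 per direction of each neighbouring list, of which some are printed. Clusters of like brightness, the averaged inhibitor difference and passage 7 were added after seeing the data. Tried alternatives were array weights, an intensity trend, a dim filter, quantile scaling, centring, the passage as a block and leaving out arrays.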

Additional observations from a re-analysis of the deposited data

Results flagged for a closer look

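In 5 genes the 3 passages moved one way in the absence of an agent and all 3 moved the other way in its presence. That is 6.58% of the members, against 5.14% of all clusters and 5.81% of clusters of like brightness. For Mrps16 the inhibitor difference was lower with ALA than without it by 0.30 on the log2 scale (-0.30). For the ALA difference, with inhibitor minus without, the values were -0.26 for Mrpl34, -0.27 for Mrps17, -0.16 for Mrpl17 and -0.26 for Mrps10. By limma the adjusted interaction p was 1 for each of the 76 genes. Mrps16 read 7.62, 7.69 and 7.64 with both agents and 7.74, 7.85 and 7.73 with ALA at passages 6, 7 and 8. Its values were 7.98, 7.58 and 7.73 with inhibitor and 7.56, 7.53 and 7.68 in control. No array was flagged in 24 outlier checks of the passage groups of 4, among which chance flags about 1 in 20. The ALA passage 7 array, which gave the lowest value for 34 of the 76 genes, was thus not flagged. The checks therefore do not show that it was like the others.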

How the results depend on the processing

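The directions of the inhibitor medians and of the passage median held in all alternatives tried. The median for inhibitor against control ranged from 0.027 to 0.133, for both agents against ALA from 0.018 to 0.146 and for passage 8 against passage 6 from -0.129 to -0.084. The median for ALA against control ranged from -0.091 (without ALA passage 6) to 0.059 (without ALA passage 7), and that of the interaction from -0.042 (without ALA passage 7) to 0.078. For both agents against inhibitor it ranged from -0.042 to 0.029. Members at unadjusted p under 0.01 were 1 for inhibitor against control with array weights, with only the arrays compared, and without ALA passage 7. For both agents against ALA the count was 1 without passage 8 in every group and 0 to 1 with single arrays left out. For passage it was 12 with the intensity trend, which also gave 8 members at adjusted p under 0.05, all lower at passage 8 (10.5%, against 5.26% of all clusters). With single arrays left out it was 2 to 7: 2 without the ALA plus inhibitor array of passage 8, and 3 without either the passage 6 or the passage 8 array of the inhibitor group. Mrps9 passed adjustment by limma under 5 alternatives, at adjusted p of 0.0134 to 0.049. Without the ALA passage 7 array it was the only member to pass, while 2.68% of all clusters passed. Same-numbered arrays of different groups had deviation correlations of -0.05 to 0.46, with 13 of 18 pairs over 0.1. Pairs from different passages had -0.44 to 0.21, with 5 of 36 over 0.1. For 10 of 12 arrays the mean correlation with the other groups was highest at their own passage. The labels do not state a pairing. With passage as a replicate block, the averaged inhibitor difference had 12 members at p under 0.05 (15.8%, against 12.7% of all clusters; 5 without the block). The smallest adjusted p of a member was 0.256, and 8 clusters passed adjustment. Among the 983 alternative values of the single genes whose differences are printed, 4 changed sign. For ALA against control, Mrps18a turned to 0.006 with array weights and 0.055 without ALA passage 7 (lowest -0.667, without ALA passage 8). Mrps12 turned to 0.014 for inhibitor against control without the inhibitor array of passage 8 (lowest -0.188), and to 0.012 for both agents against ALA without ALA passage 7 (lowest -0.218).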
